A study of Mus musculus with 2 samples.

Results

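Fibronectin (Fn1), SPARC (Sparc), thrombospondins 1 and 2 (Thbs1, Thbs2), periostin (Postn), tenascin C (Tnc), the CCN proteins Ccn1 and Ccn2, and perlecan (Hspg2) were examined in single-cell RNA sequencing of subcutaneous MC38 tumours. These 9 genes were taken by symbol from the 56941 genes counted, and all of them had unique molecular identifiers (UMIs, counts of single captured transcripts) in both libraries. MC38 is a mouse colon adenocarcinoma line. A cell pool transduced by lentivirus was grown in C57BL/6 mice, labelled wild type: one tumour came from a pool transduced with SPP1 (osteopontin) and the other from a pool carrying the control vector. The animals of both groups received anti-PD1 at 10 mg/kg, 2 times a week for 2 weeks from day 7, so neither tumour was untreated. Each group is 1 library from the tumour of a transduced pool, and cells are not replicates. No test between groups was therefore possible, and every interval below is a 95% interval of counting error only, which leaves out differences between mice and between preparations.

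Matricellular proteins are secreted into the extracellular matrix, where they act on cell adhesion, growth factor availability and matrix assembly more than they bear load. Fibronectin is assembled into fibrils by integrins and offers binding sites to collagens and growth factors, and perlecan is a heparan sulphate proteoglycan of basement membranes. In carcinomas these genes are best known from activated fibroblasts, although tumour cells with mesenchymal features and macrophages are known to make several of them.

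The library labelled SPP1 held 13563 kept cells and the library labelled vector 13901, with 164599332 and 164247003 UMIs in all barcodes. Most kept cells, 10401 and 10376, belonged to a compartment marked by Hmga2 and Sox9, at 846 and 848 CPM (UMIs of a gene scaled to 1000000 UMIs of the class) for Hmga2 and 865 and 831 CPM for Sox9. It is called the tumour compartment here, from markers known from earlier results of these data. The carcinoma markers Krt8 (0.218 and 0.162 CPM) and Epcam (1 and 2 UMIs) were near 0 in it, against the label of colon adenocarcinoma cells. Macrophage/monocyte-like cells numbered 748 and 916, fibroblast-like cells 37 and 39, and T and NK-like cells 105 and 162. The transcript that the labels name did not separate the libraries in the tumour compartment: mouse Spp1 stood at 127 CPM in the library labelled SPP1 and 134 CPM in the library labelled vector. Which species' SPP1 was introduced is not given in the sources used here, and the counts cover the mouse gene, so the labels are used below as names of libraries. The libraries shared 93 barcode sequences, of which 87 were kept in both.

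The 9 genes fell into 3 kinds by the cells that held their transcripts. Sparc, Ccn1, Hspg2 and Fn1 came mostly from the tumour compartment, Thbs1 from macrophage/monocyte-like cells, and Postn, Tnc, Thbs2 and Ccn2 for at least 50.9% of their UMIs in each library from the 37 and 39 fibroblast-like cells. For Sparc, which encodes a collagen-binding glycoprotein, the compartment held 94.0% of the UMIs in the library labelled SPP1 and 94.3% in the library labelled vector. It held 94.5% and 95.3% of the Ccn1 UMIs and 93.9% and 94.0% of those of Hspg2. Fn1 was more divided, with 83.9% of its UMIs from the compartment and 9.34% from macrophage/monocyte-like cells in the library labelled SPP1, against 78.2% and 14.1% in the library labelled vector. These shares follow the number of cells captured from each class as well as the level in each cell.

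**Figure D1:**
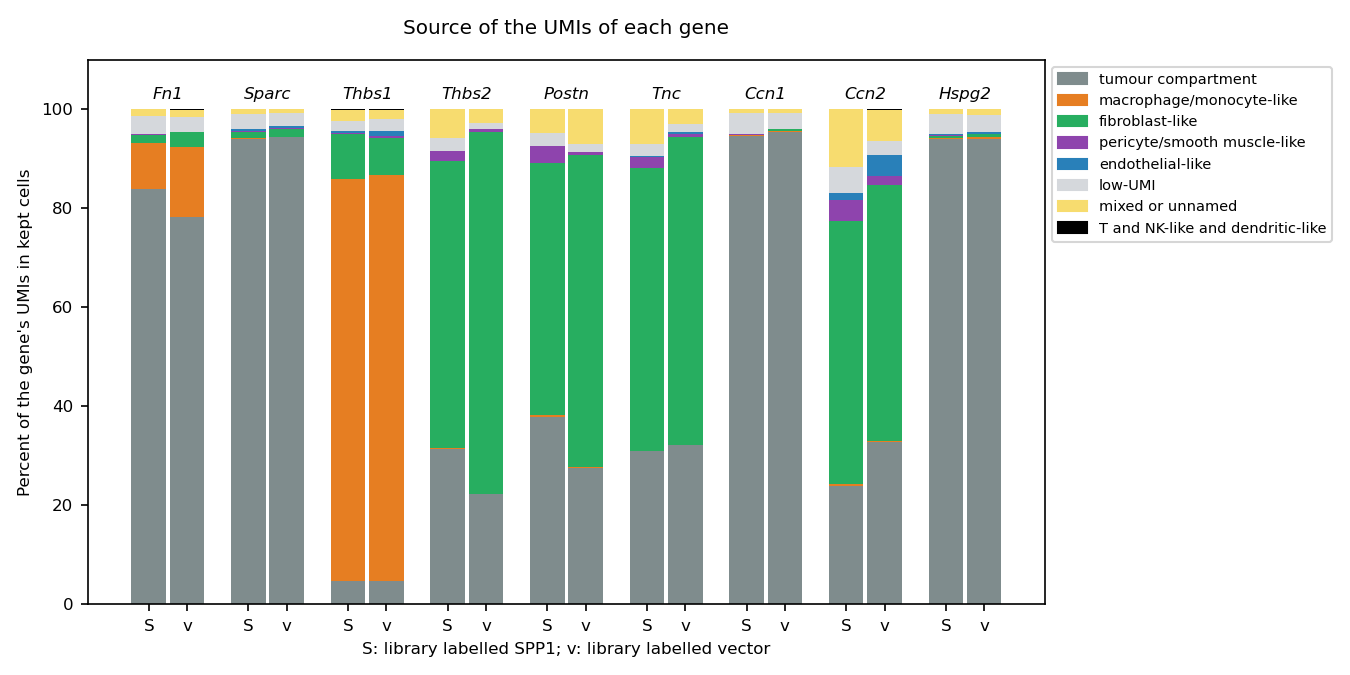
Percent of each gene's UMIs (vertical axis) that lay in each cell class, with the library labelled SPP1 as the left bar and the library labelled vector as the right bar of each pair. Sparc, Ccn1, Hspg2 and Fn1 are mostly tumour compartment, Thbs1 is mostly macrophage/monocyte-like (81.1% and 82.0%), and the other 4 genes are mostly fibroblast-like.

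The 250 bases before the transcription start are printed for 5 genes that carry this contrast, a pair made mostly in the tumour compartment (Ccn1, Sparc) and 3 made mostly by fibroblast-like cells (Postn, Tnc, Thbs2). They are RefSeq sequences of build GRCm38.p6, matched by symbol and read 5′ to 3′ on the gene's strand. Symbols matched for 6 of the 9 genes. Capitals mark TATAAA on the gene's strand or, for TEAD, the letters GGAATG on either strand, which read CATTCC on the other. Ccn1 lies at chr3:145649986-145650235 (minus strand), Sparc at chr11:55420081-55420330 (minus), Postn at chr3:54360857-54361106 (plus), Tnc at chr4:64047016-64047265 (minus) and Thbs2 at chr17:14694263-14694512 (minus).
Ccn1: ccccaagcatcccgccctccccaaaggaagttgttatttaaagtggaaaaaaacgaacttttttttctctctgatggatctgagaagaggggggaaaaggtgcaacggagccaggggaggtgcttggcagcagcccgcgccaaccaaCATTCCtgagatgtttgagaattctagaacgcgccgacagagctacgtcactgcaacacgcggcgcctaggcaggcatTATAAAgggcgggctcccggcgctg
Sparc: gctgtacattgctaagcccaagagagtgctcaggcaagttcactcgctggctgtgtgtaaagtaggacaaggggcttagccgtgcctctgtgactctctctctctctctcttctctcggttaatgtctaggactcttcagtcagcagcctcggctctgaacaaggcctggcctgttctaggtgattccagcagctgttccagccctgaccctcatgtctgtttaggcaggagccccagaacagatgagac
Postn: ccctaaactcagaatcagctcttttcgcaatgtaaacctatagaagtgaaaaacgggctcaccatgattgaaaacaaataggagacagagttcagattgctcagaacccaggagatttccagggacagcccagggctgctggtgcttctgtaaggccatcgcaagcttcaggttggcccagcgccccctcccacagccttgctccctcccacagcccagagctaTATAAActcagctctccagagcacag
Tnc: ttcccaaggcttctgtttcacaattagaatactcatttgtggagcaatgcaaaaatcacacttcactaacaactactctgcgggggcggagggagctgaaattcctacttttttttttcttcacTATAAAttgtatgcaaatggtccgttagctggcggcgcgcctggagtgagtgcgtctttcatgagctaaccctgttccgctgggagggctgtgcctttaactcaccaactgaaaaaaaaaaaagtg
Thbs2: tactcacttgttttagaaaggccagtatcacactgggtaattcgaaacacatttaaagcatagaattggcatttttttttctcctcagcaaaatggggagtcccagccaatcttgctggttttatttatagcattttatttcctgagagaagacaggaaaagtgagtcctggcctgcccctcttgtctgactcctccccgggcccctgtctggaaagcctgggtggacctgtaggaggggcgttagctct
In Ccn1, a matricellular gene best known as a YAP and immediate-early target, the TEAD letters began 103 bases before the start and TATAAA 25 bases before it. Postn held TATAAA 26 bases before the start shown and Tnc 126 bases before. Postn and Tnc each have 2 starts among these RefSeq sequences, of which 1 is shown. Of 32851 mouse promoters of the same length, 12.6% held the TEAD letters and 7.59% held TATAAA on the gene's strand. The AP-1 letters TGANTCA (6.75% of promoters, both strands) and the CArG box, the serum response factor motif (1.47%), were not in these windows, nor was any of the 4 motifs in that of Hspg2. Such matches are letters in a window and not shown to be sites.

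Set against the tumour compartment and macrophage/monocyte-like cells, fibroblast-like cells had the highest level of 8 of the 9 genes in both libraries, Ccn1 being the other one. Postn, a secreted protein that binds collagen and integrins, was at 9218 CPM in fibroblast-like cells of the library labelled SPP1 and 9546 CPM in the library labelled vector. In the tumour compartment it was at 18.4 and 13.6 CPM, which is 501-fold and 702-fold less. Tnc, a large hexameric glycoprotein of wounds and tumour stroma, stood at 4906 and 6297 CPM in fibroblast-like cells and at 7.13 and 10.6 CPM in the compartment. Thbs2, a trimeric thrombospondin that restrains angiogenesis, was at 1129 and 1300 CPM against 1.64 and 1.29 CPM. Ccn2, a cysteine-rich regulator of fibrosis, was at 428 and 411 CPM against 0.514 and 0.843 CPM. The 4 genes therefore had the same order of classes in both libraries.

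Fn1 and Sparc were also higher per cell in fibroblast-like cells, although the compartment held most of their UMIs. Fn1 was at 5037 CPM there in the library labelled SPP1 and 4893 CPM in the library labelled vector, 7.23-fold and 11.9-fold the level of the compartment. For Sparc the levels were 9933 and 10775 CPM, 4.49-fold and 5.31-fold the compartment. The libraries did not give one order for Ccn1: fibroblast-like cells were at 502 CPM against 770 CPM in the compartment of the library labelled SPP1, and at 939 CPM against 720 CPM in the library labelled vector. Hspg2 was 1.58-fold and 2.03-fold higher in fibroblast-like cells than in the compartment, at 247 and 296 CPM. Other stromal classes were small. In 16 and 17 endothelial-like cells Sparc reached 9351 and 8955 CPM and Hspg2 414 and 646 CPM, both above the compartment. Hspg2 there was also above its level in fibroblast-like cells in both libraries.

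The name fibroblast-like rested on the level of a list of 12 markers. Their summed level was 9925 and 10950 CPM, against 2040 and 1726 CPM in the tumour compartment. All 12 had UMIs in both libraries, in fibroblast-like cells and in the compartment alike. The summed level of 6 tumour markers in these cells was 562 and 839 CPM, against 3104 and 2833 CPM in the compartment. Most of that sum was Prrx1, which was not lower in fibroblast-like cells (339 and 593 CPM) than in the compartment (326 and 364 CPM). Hmga2 was lower, at 21.0 and 23.8 CPM against 846 and 848 CPM, and Sox9, at 134 and 164 CPM against 865 and 831 CPM. Tafa1 and Hoxa9 were also lower in both libraries. The summed level of 10 macrophage markers in fibroblast-like cells was 223 and 389 CPM, against 14975 and 12300 CPM in macrophage/monocyte-like cells. The part of transcripts from other cells in the levels of the 9 genes was not tested. Values of 37 and 39 cells also rest on few cells: the 3 with most UMIs held 38.3% and 30.8% of the class's Tnc UMIs and 22.7% and 27.4% of its Postn UMIs.

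**Figure D2:**
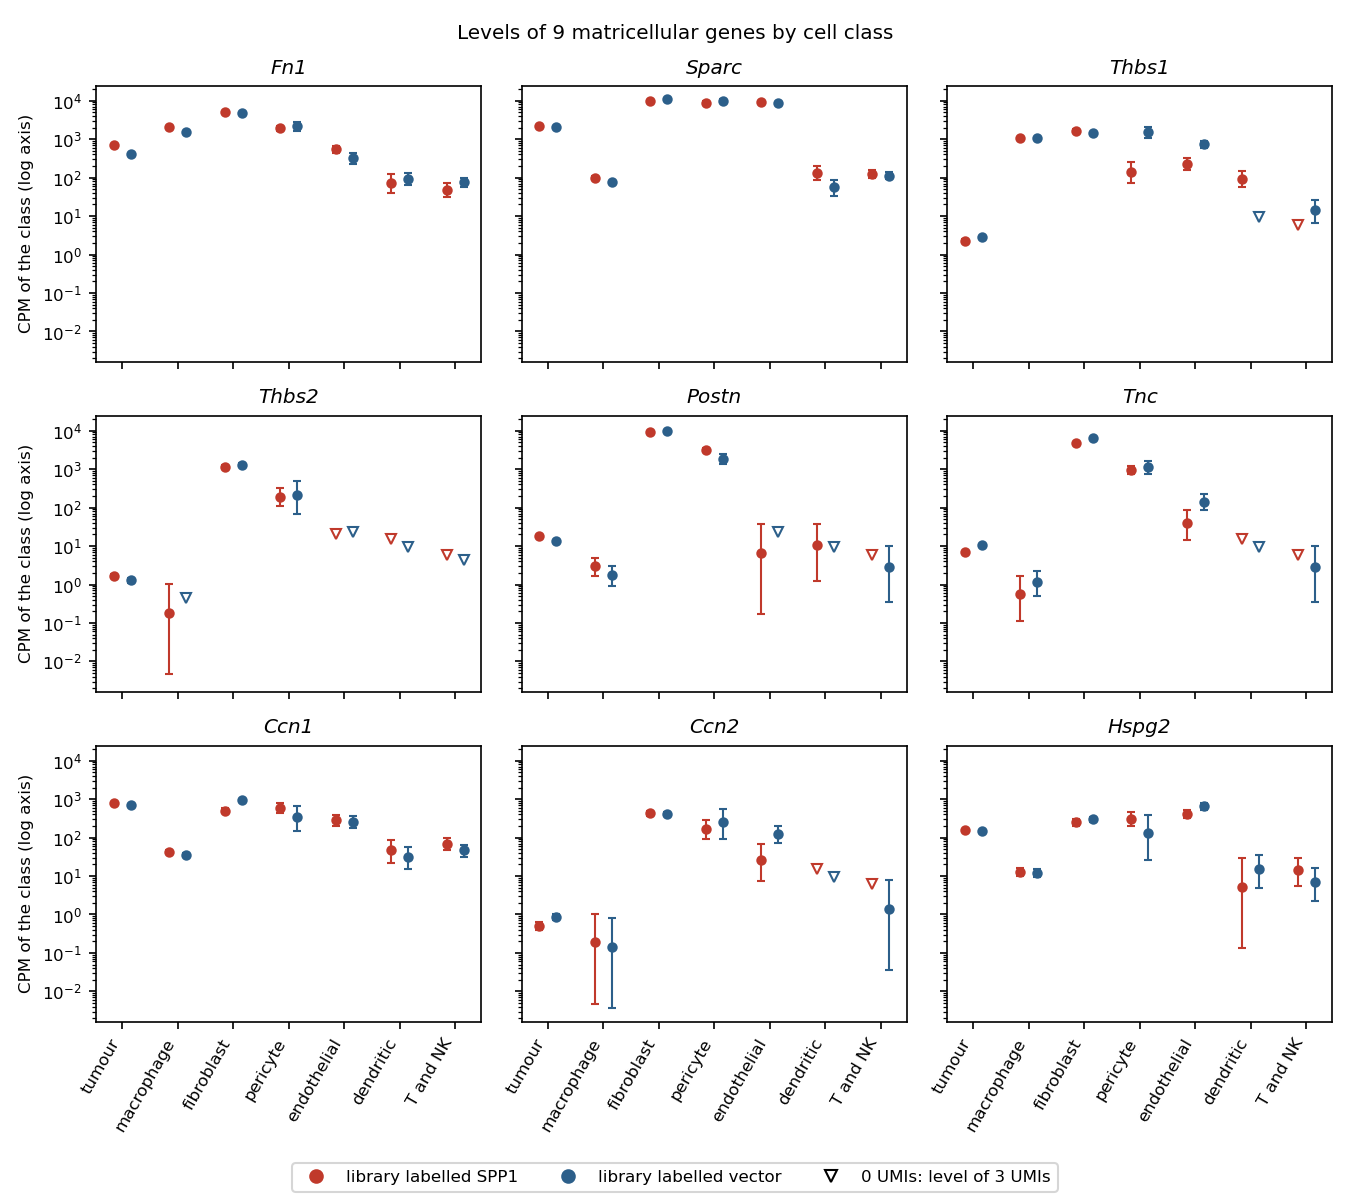
CPM of each gene (logarithmic vertical axis) in 7 cell classes, the library labelled SPP1 left of the library labelled vector, with bars for 95% counting intervals and open triangles at the level of 3 UMIs where none was counted. Postn, Tnc, Thbs2 and Ccn2 stand far higher in fibroblast-like cells than in the tumour compartment (501-fold and 702-fold for Postn), and Thbs1 is high in macrophage/monocyte-like and fibroblast-like cells.

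Macrophage/monocyte-like cells expressed Fn1 and Thbs1 and held little of the other 7 genes. Thbs1, the platelet and macrophage thrombospondin that binds CD47 and CD36 and activates latent TGF-beta, was at 1043 CPM in the library labelled SPP1 and 1042 CPM in the library labelled vector. In the compartment it was at 2.28 and 2.80 CPM, 457-fold and 373-fold less. Fn1 reached 2058 and 1548 CPM, 2.95-fold and 3.75-fold the compartment. T and NK-like cells, which are not known as a source of these genes, served as the level to compare with; how much of their signal is free RNA was not tested. Cells with at least 1000 UMIs were thinned to 1000 UMIs, and cells with fewer were left out of the thinned shares. After thinning, Fn1 was seen in 61.2% and 52.3% of macrophage/monocyte-like cells and in 9.18% and 6.37% of T and NK-like cells. Thbs1 was seen in 34.7% and 36.8% of macrophage/monocyte-like cells and in 0% and 1.27% of T and NK-like cells. Without thinning the Thbs1 shares were 50.4% and 56.8% against 0% and 2.47%, at median depths of 6911 and 7509 UMIs per macrophage/monocyte-like cell and of 3726 and 3578.5 UMIs per T and NK-like cell.

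For the class as a whole, Sparc, Ccn1 and Hspg2 in macrophage/monocyte-like cells were near the level of T and NK-like cells. The thinned share with Sparc was 12.4% and 9.18%, and in T and NK-like cells it was 11.2% and 10.8%. Ccn1 gave 6.12% and 3.37% against 6.12% and 5.10%, and Hspg2 gave 1.31% and 1.28% against 2.04% and 1.27%. The exception was the low-UMI sub-cluster led by Ctsk, with Sparc in 33.3% and 18.5% of thinned cells. Only 84 of its 142 cells and 81 of its 128 cells were deep enough to be thinned. The median depth of all its cells was 1203.5 and 1325.5 UMIs. Postn had 16 and 12 UMIs in the whole class, Tnc 3 and 8, Ccn2 1 and 1, and Thbs2 1 and 0. In the compartment the thinned shares of Sparc were 84.3% and 82.2%, of Ccn1 42.6% and 41.1% and of Fn1 44.7% and 30.6%, all far above T and NK-like cells. Compartment Thbs1 was not, at 0.224% and 0.399%.

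Among 7 macrophage/monocyte-like sub-clusters, Thbs1 and Fn1 were both highest in the one led by Chil3 and Ly6c2, genes of inflammatory monocytes. It held 36 and 73 cells, in which Thbs1 was at 3584 CPM in the library labelled SPP1 and 3924 CPM in the library labelled vector. Fn1 was at 3686 and 3486 CPM in the same cells. The larger sub-cluster led by Dcstamp, Clec7a and Il1b came next for Thbs1, at 2226 and 1498 CPM, and held 54.8% and 54.0% of the class's Thbs1 UMIs. Thbs1 was lowest at 232 and 270 CPM in the cells led by Ccl12 and Ccl8 and at 306 and 257 CPM in those led by Fcrls, F13a1 and Folr2, genes of resident-type macrophages. From highest to lowest sub-cluster the range was 15.5-fold and 15.2-fold for Thbs1, and 2.83-fold and 4.35-fold for Fn1. The 9 genes were left out when cells were clustered. Thbs1 was among the 10 leading genes of both high sub-clusters. Leading genes are ranked against all other kept cells, mostly of the tumour compartment, so this rank does not compare the sub-clusters with each other.

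**Figure D3:**
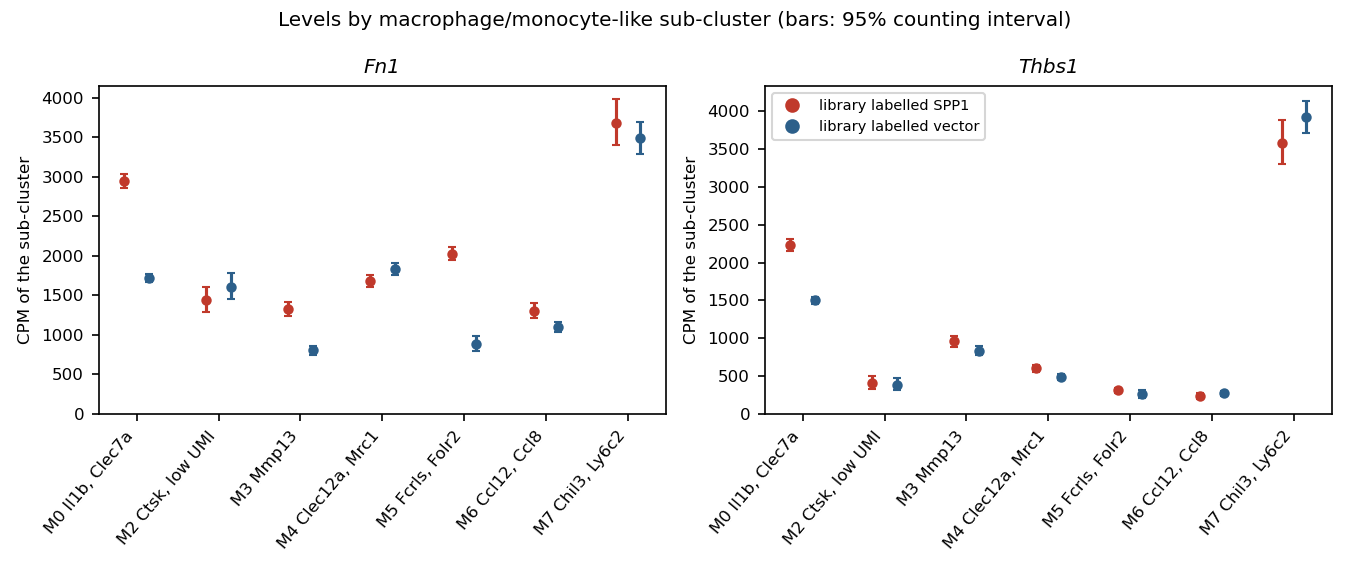
CPM of Fn1 and of Thbs1 (vertical axes from 0) in 7 macrophage/monocyte-like sub-clusters named by leading genes, the library labelled SPP1 left of the library labelled vector, with 95% counting intervals. Thbs1 is highest in the sub-clusters led by Chil3 and Ly6c2 and by Il1b and Clec7a, and Fn1 has its largest ratio between libraries in the one led by Fcrls and Folr2 (2027 and 886 CPM) and its largest gap in CPM in the one led by Il1b and Clec7a (2943 and 1722 CPM).

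Within the tumour compartment the genes marked different states among 13 clusters. Fn1 was highest in both libraries in cluster 7, led by Pcdh9, Magea9, Nrep and Col4a5, at 1486 CPM in the library labelled SPP1 and 1155 CPM in the library labelled vector. That cluster held 1682 cells of the library labelled SPP1 and 56 of the library labelled vector, so it may be that library rather than a cell state. Next in the library labelled SPP1 came cluster 3 (920 CPM), cluster 11 (903 CPM) and cluster 6 (881 CPM). Clusters 3 (810 CPM), 5 (645 CPM) and 6 (555 CPM) followed in the library labelled vector. Fn1 was lowest in cluster 16, led by the interferon-gamma response genes Cxcl10 and Gbp2, in the library labelled SPP1 (305 CPM), a cluster near the median of the 13 in the library labelled vector (332 CPM, median 339 CPM). In the library labelled vector the S phase cluster 12, led by Cenpk and Tyms, was lowest, at 235 CPM, and this cluster was second lowest in the library labelled SPP1, at 321 CPM. The span from highest to lowest was 4.88-fold and 4.92-fold.

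Ccn1 varied most among the 4 abundant genes, by 14.6-fold and 15.8-fold. It was highest in cluster 3, led by Aspn, Lbp, Ogn, Btg2 and Fos, at 1925 CPM in the library labelled SPP1 and 2205 CPM in the library labelled vector. The S phase cluster 12 had the lowest level, at 132 and 139 CPM. By correlation of log2(CPM + 1) over 26 points, each a cluster in 1 library, the genes most like Ccn1 were Btg2 (r = 0.96), Dusp1 (r = 0.96) and Junb (r = 0.94). All 3 are immediate-early genes, which tissue dissociation is known to induce. Dusp1 stood at 2368 and 2845 CPM in cluster 3 and at 112 and 130 CPM in cluster 12, and Fos at 7093 and 9032 CPM against 262 and 400 CPM. The part of the dissociation in the Ccn1 levels was not tested.

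Sparc and Hspg2 were the most even, with a span of 2.11-fold and 2.36-fold for Sparc and of 1.96-fold and 1.99-fold for Hspg2. Sparc was highest in clusters 6 (3335 and 3038 CPM) and 7 (3150 and 3416 CPM) and lowest in cluster 0, led by H1f5 and Esco2 (1589 and 1447 CPM) and in cluster 13 (1579 and 1474 CPM). The highest Hspg2 level, 225 and 227 CPM, was also in cluster 6. Of the genes most like them, Plscr4 (r = 0.96), Chd3 (r = 0.95) and Col4a5 (r = 0.94) followed Sparc and Man2b2 (r = 0.93) followed Hspg2. Col4a5, a basement membrane collagen chain, was also the gene most like Fn1 (r = 0.95). These correlations describe 26 points that share cells, depth and the 2 libraries, over 10781 genes compared.

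Postn and Tnc, which were low in the compartment as a whole, differed widely between its clusters, Postn with several high clusters and Tnc with 1 far above the rest. Postn was at 40.8 CPM in the library labelled SPP1 and 66.7 CPM in the library labelled vector in cluster 3, which held 15.5% and 59.9% of the compartment's Postn UMIs. In cluster 7 it was at 61.0 CPM in the library labelled SPP1, with 44.4% of those UMIs, and had 2 UMIs in the 56 cells of the library labelled vector. Cluster 6 had 29.9 and 35.6 CPM, with 8.62% and 14.6% of those UMIs, and cluster 11 had 31.6 and 9.85 CPM, against medians over clusters of 8.53 and 3.71 CPM. The genes most similar to Postn were Aspn (r = 0.91), Cilp (r = 0.91) and Lum (r = 0.90), all of which encode matrix proteins of connective tissue. Tnc was highest in cluster 9, led by Fbxl7, Slc7a2 and Plxdc1, at 25.7 and 52.2 CPM, with 26.1% and 50.1% of the compartment's Tnc UMIs. The likeness of other genes to Tnc was weaker, with r = 0.75 for Mtmr7, 0.74 for Myo7a and 0.74 for Patj. Ccn2 was highest in the heat shock cluster 11, led by Cryab, Edn1 and Hspa1b, at 4.55 and 6.85 CPM from 38 and 32 UMIs. Thbs2 was highest in cluster 3, at 6.54 and 6.79 CPM.

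**Figure D4:**
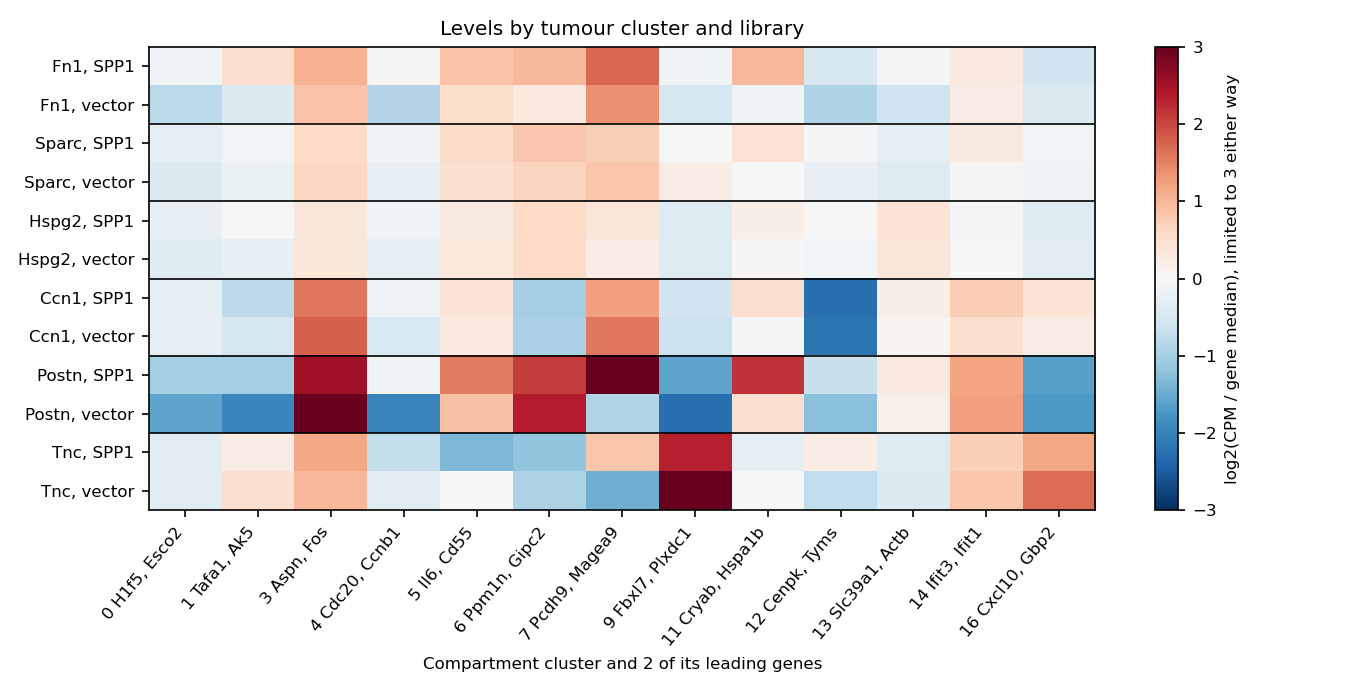
Colour shows log2 of the CPM over the gene's median in all 26 columns of cluster and library, for 6 genes (rows, the library labelled SPP1 above the library labelled vector) in 13 tumour clusters (columns). Ccn1 is highest in the cluster led by Aspn and Fos and lowest in that led by Cenpk and Tyms, Tnc is highest in that led by Fbxl7 and Plxdc1, and Fn1 in that led by Pcdh9 and Magea9, where the library labelled vector had 56 cells with 2 UMIs of Postn and 1 of Tnc.

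Between the libraries, Fn1 in the tumour compartment differed by more than 1.5-fold and the other 8 genes did not by their whole interval. Fn1 was at 697 CPM (95% interval 693 to 701) in the library labelled SPP1 and 413 CPM (409 to 416) in the library labelled vector, a log2 ratio of 0.76 (0.74 to 0.77). One of 9 genes was thus past 1.5-fold, higher, beside 1.76% of the 15474 genes with at least 100 UMIs in the compartment that were higher by this rule, 0.433% that were lower and 2.19% in either direction. Sparc (2211 and 2031 CPM, log2 ratio 0.12), Ccn1 (770 and 720 CPM, 0.10) and Hspg2 (156 and 146 CPM, 0.10) lay at or near the median absolute log2 ratio of 0.12 over 10781 genes with at least 1000 UMIs. Tnc was at 7.13 and 10.6 CPM, with a log2 ratio of -0.57 (-0.68 to -0.45). Cluster 9 held 264 of its 1012 UMIs in the library labelled SPP1 and 752 of its 1502 in the library labelled vector. No ratio was taken without cluster 9. Ccn2 had 73 and 120 UMIs and a log2 ratio of -0.71 (-1.15 to -0.28). Postn was at 18.4 and 13.6 CPM (log2 ratio 0.44), Thbs2 at 1.64 and 1.29 CPM (0.35) and Thbs1 at 2.28 and 2.80 CPM (-0.29). The median over the 9 genes was 0.10, beside 0.00 over all genes tested.

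The Fn1 difference was present in most clusters but its size depended on cluster 7. The counting interval of the log2 ratio lay above 0 in 11 of 13 clusters and below 0 in 1, the interferon-gamma response cluster 16, at -0.13. The whole interval was past 1.5-fold in 5 clusters, namely 0, 1, 4, 6 and 11, with the largest ratio of 1.10 in the heat shock cluster 11 (903 and 421 CPM). Without cluster 7, which held 28.6% of compartment Fn1 UMIs in the library labelled SPP1 and 1.06% in the library labelled vector, Fn1 was at 575 and 410 CPM. The log2 ratio was then 0.49 (0.47 to 0.50), no longer past 1.5-fold. With clusters given the same weights in both libraries it was 0.50. In the same comparison without cluster 7, Postn turned to -0.21 (11.8 and 13.6 CPM) and Ccn1 to -0.12 (657 and 716 CPM). Within clusters Postn mostly ran the other way. Of 8 compared, which include cluster 7, the interval lay above 0 in 5 and below 0 in 1, with a median of 0.64. It was past 1.5-fold, higher, in cluster 4 (6.24 and 1.74 CPM), cluster 11 (31.6 and 9.85 CPM) and cluster 7, where the library labelled vector had 2 UMIs. The 1 cluster below 0 was cluster 3, at -0.71 (-0.88 to -0.55), which held most Postn UMIs of the library labelled vector. For Tnc the interval crossed 0 in all of the 7 clusters compared but 1. That was cluster 9, past 1.5-fold at -1.02 (-1.23 to -0.82). There the 3 cells with most UMIs held 32.2% and 11.8% of its UMIs.

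**Figure D5:**
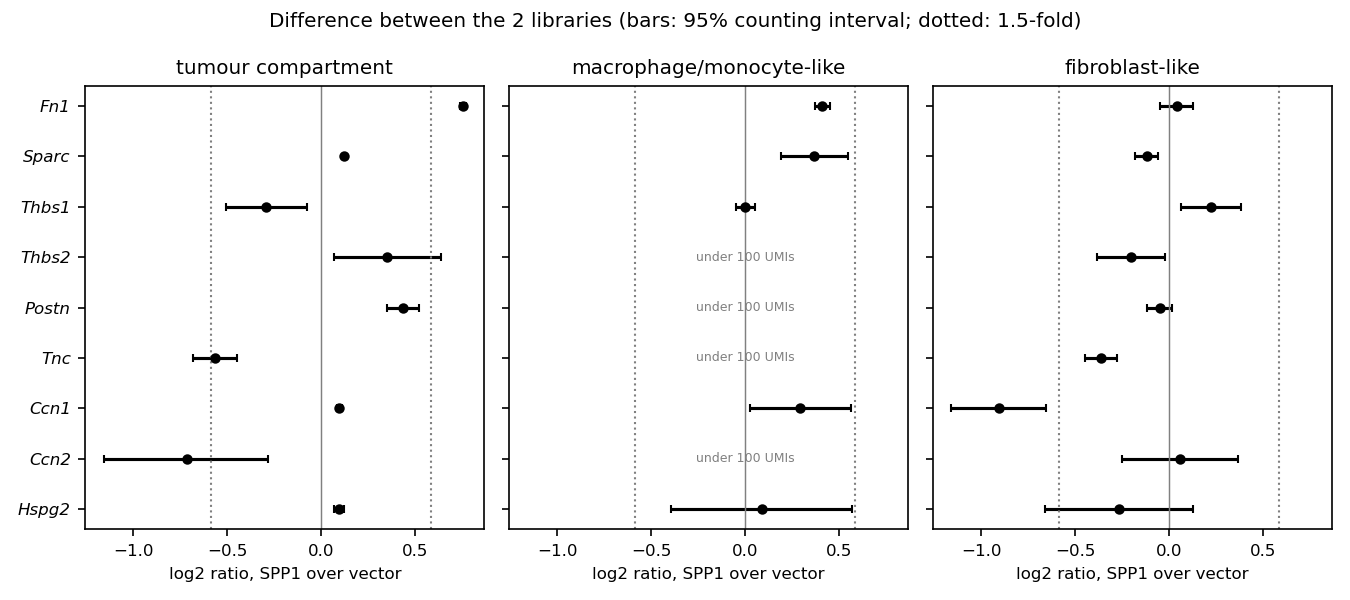
Log2 ratio of CPM, library labelled SPP1 over library labelled vector (horizontal axis), for each gene in 3 cell classes, with 95% counting intervals and dotted lines at 1.5-fold. Fn1 lies past the upper line in the tumour compartment (0.76) and Ccn1 past the lower line in fibroblast-like cells (-0.90); no gene does in macrophage/monocyte-like cells.

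In macrophage/monocyte-like cells none of the 5 genes with at least 100 UMIs was past 1.5-fold, beside 0.588% of 8503 genes in either direction (0.4% higher and 0.188% lower). Fn1 came nearest, at 2058 and 1548 CPM and a log2 ratio of 0.41 (0.37 to 0.45). Within sub-clusters of at least 50 cells in each library it was past 1.5-fold in 3 of 6. It was at 2027 CPM in the library labelled SPP1 and 886 CPM in the library labelled vector in the sub-cluster led by Fcrls and Folr2 (log2 ratio 1.19), which made up 21.5% and 5.68% of the class. In the sub-cluster led by Dcstamp and Il1b it was at 2943 and 1722 CPM (0.77), and in that led by Mmp13 at 1327 and 802 CPM (0.73). It ran the other way in the sub-cluster led by Arl6ip1 and Clec12a, at 1683 and 1834 CPM (-0.12, -0.21 to -0.04), and in the low-UMI sub-cluster led by Ctsk, at 1437 and 1604 CPM with an interval across 0 (-0.16, -0.38 to 0.06). Thbs1 over the whole class had a log2 ratio of 0.00 (-0.05 to 0.05). Its level in the sub-cluster led by Dcstamp and Il1b was higher, with a log2 ratio of 0.57 (0.50 to 0.64), while that sub-cluster was 20.3% of the class in the library labelled SPP1 and 31.6% in the library labelled vector. With each sub-cluster given the same weight in both libraries, its share of the cells of both together, the Thbs1 log2 ratio was 0.28. This comparison was chosen after seeing the data.

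In fibroblast-like cells 1 of the 9 genes, Ccn1, was past 1.5-fold, beside 5.19% of 1503 genes in either direction, 2.26% higher and 2.93% lower. Ccn1 was at 502 CPM (433 to 578) in the library labelled SPP1 and 939 CPM (853 to 1031) in the library labelled vector, a log2 ratio of -0.90 (-1.16 to -0.66), from 191 and 434 UMIs. Leaving out the 3 cells with most Ccn1 UMIs in each library gave -1.29, and adding the pericyte/smooth muscle-like and mixed stromal sub-clusters, chosen after seeing the data, gave -0.36, no longer past 1.5-fold. With cells thinned to 1000 UMIs it had too few UMIs for a call. Tnc was at -0.36 (-0.44 to -0.28), and the other 7 genes lay between -0.26 for Hspg2 and 0.22 for Thbs1. The median of the 9 was -0.12, beside 0.05 over all genes tested. These values come from 37 and 39 cells of 1 tumour each.

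Of genes that act with the 9, 114 from 7 lists were tested in the tumour compartment, and 7 of them (6.14%, 5 higher and 2 lower) were past 1.5-fold, beside 2.19% of all genes tested. Whether this share differs from that of all genes was not tested. Among 18 tested of 25 other matricellular genes, Fbln1, a fibulin that binds fibronectin, was higher at 20.4 CPM in the library labelled SPP1 and 12.8 CPM in the library labelled vector (log2 ratio 0.68). Dpt, dermatopontin, was lower at 9.57 and 17.5 CPM (-0.87). Among 18 tested receptors of these proteins, Itgb8, the beta-8 integrin subunit that activates latent TGF-beta, was the only one past 1.5-fold, at 18.9 and 8.34 CPM (1.18). It is also 1 of the 10 leading genes of cluster 7. Of 13 basement membrane genes tested, Col4a5 was higher at 35.0 and 19.7 CPM (0.83), as was Lama2 from 154 and 12 UMIs, and no other. Col4a5 is likewise a leading gene of cluster 7, where it was highest, at 93.5 and 76.2 CPM. None of 13 collagen genes, of 19 YAP and TEAD target genes or of 16 matrix assembly and cross-linking genes was past 1.5-fold, with medians of -0.06, -0.09 and 0.10. Of 17 TGF-beta target genes, Id3 was higher at 81.8 and 47.5 CPM (0.78) and Acta2, smooth muscle actin, lower at 6.54 and 11.2 CPM (-0.78), and the list's median was 0.01.

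In fibroblast-like cells 10 of 71 partner genes tested (14.1%) were past 1.5-fold, 2 higher and 8 lower, beside 5.19% of all genes tested in either direction, 2.26% higher and 2.93% lower. Collagens Col1a1 (16787 and 25975 CPM, log2 ratio -0.63), Col3a1 (14844 and 27312 CPM, -0.88) and Col12a1 (977 and 1882 CPM, -0.95) were 3 lower of 12 tested, with none higher and a list median of -0.27. The matricellular genes Spp1 (4107 and 13877 CPM, -1.76), Ccn3 (68.3 and 251 CPM, -1.88) and Dpt (39.4 and 229 CPM, -2.54) were lower. Dpt is also 1 of the 12 markers used to name the class. Whether both libraries held the same mix of fibroblast-like cells was not tested. Sparcl1, a relative of Sparc, was higher at 596 and 193 CPM (1.63), as was Smoc2, another Sparc relative, at 394 and 138 CPM (1.51), which was named after its value was seen. Acta2 was lower at 234 and 580 CPM (-1.31) and Fbn2, fibrillin 2, at 134 and 283 CPM (-1.08). No YAP and TEAD target gene of 7 tested and no receptor gene of 9 tested was past 1.5-fold. In macrophage/monocyte-like cells none of the genes tested in the 7 lists was past it.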

How the data were processed

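The deposited gene by cell matrices hold UMI counts that the authors made with Cell Ranger 2.1.1 on GRCm39, per the submitters' processing notes; the sources used here give no filter applied before deposit. The values are whole numbers per gene and barcode, not normalized, and each library has 14029 (labelled SPP1) or 14317 (labelled vector) barcodes.

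From these counts, barcodes under 300 genes or 500 UMIs, or with over 15% of UMIs from mitochondrial genes, were dropped, leaving 13956 and 14243 cells. Predicted doublets by simulation (393, 2.82%, and 342, 2.40%) were removed. Cells were clustered (2000 variable genes without the 9 members, 30 principal components, 20 neighbours, Leiden resolution 1; Python 3.11.15, scikit-learn 1.9.0, leidenalg 0.10.2) and named from marker lists, and the naming thresholds kept low-UMI (1903 and 1999 cells) and mixed (308 and 338) clusters out of every class. They were set after seeing the clusters. UMIs were summed per library and class and given as CPM with exact Poisson intervals. Ratios carry exact conditional binomial intervals, and a gene with at least 100 UMIs was called when its whole interval lay beyond 1.5-fold. The calculation was tested on simulated data. With 1 library per group there was no test between groups.

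The members and gene lists were chosen with earlier results of these data known. Named besides the members were, per list, up to 4 genes with the largest compartment ratio among those called, and for each member the 3 genes most correlated over compartment clusters of at least 50 cells. In fibroblast-like cells, called list genes were named after their values were seen. Alternatives changed the doublet and cell filters, the weighting of cells and clusters, depth, resolution, the variable genes, the highest cells, the UMI minimum and the fold.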

Additional observations from a re-analysis of the deposited data

How the results depend on the processing

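The number of the 9 genes past 1.5-fold in the tumour compartment was 1 in the report, by the whole interval; by the value alone it was already 2 (Fn1 and Ccn2). The weighted alternatives have no interval and are counted by the value alone. There were 2 with each cell weighted equally (Fn1 and Ccn2). With clusters given the same weights in both libraries there were also 2 (Thbs2 and Ccn2, with Fn1 at 0.50). These weights are each cluster's share of the cells of both libraries together. The number was 0 at 2-fold and 0 without the cluster held mostly by 1 library. In macrophage/monocyte-like cells it was 0 either way, and by the value alone 1 with each cell weighted equally. It was also 1, chosen after seeing the data, with sub-clusters given the same weights in both libraries, and the gene was Ccn1 in both cases. In fibroblast-like cells it was 1, and 0 with cells thinned to 1000 UMIs or a minimum of 1000 UMIs, which leave Ccn1 under the minimum, and 0 at 2-fold. With the other stromal sub-clusters added, chosen after seeing the data, it was Tnc (-0.74) in place of Ccn1. In the 8 alternatives that apply to it, the number of genes with most UMIs from the tumour compartment stayed at 4. The compartment Fn1 log2 ratio kept its direction in all 13 alternatives, from 0.49 to 0.78, and was beyond 1.5-fold in 11. Fibroblast-like Ccn1 was lower in all 9, from -1.29 to -0.36. Postn in the compartment ran from -0.21 to 0.45 and Ccn1 from -0.12 to 0.10. Depth limits Ccn2 and Thbs2 in macrophage/monocyte-like cells, where 3 UMIs are 0.561 and 0.439 CPM. Weighting of compartment clusters gives no value for the other classes, and for source shares neither it nor the fold or the UMI minimum does. No paired analysis was possible because each group is 1 library, and for the same reason no library could be left out.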

Other observations

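Other stromal cells also carried several of these genes. In 20 pericyte/smooth muscle-like cells of the library labelled SPP1 and 8 of the library labelled vector, Sparc was at 8860 and 10000 CPM, Postn at 3100 and 1838 CPM and Tnc at 969 and 1111 CPM, the last from 75 and 26 UMIs. These levels rest on few cells. Without the 3 cells with most UMIs of the gene in each library, Tnc kept 12 and 2 UMIs. Postn then kept 128 of 240 and 8 of 43 UMIs, and Sparc 325 of 686 and 40 of 234. Thbs1 in endothelial-like cells was at 227 and 741 CPM, of which the 3 cells with most UMIs held 91.2% and 94.7%. Thbs2 had 0 UMIs in endothelial-like cells of both libraries.

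The clusters left out for low UMI counts, with 1903 and 1999 cells, had compartment-like levels of Fn1 (747 and 498 CPM), Sparc (1829 and 1762 CPM) and Ccn1 (857 and 780 CPM), with Thbs1 at 23.9 and 43.4 CPM.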
